A study of Mus musculus with 20 samples.

Results

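The collagen hydroxylases are enzymes of the endoplasmic reticulum that modify proline and lysine residues of newly made procollagen chains. The transcripts of 10 of them were followed here in mouse heart: the prolyl 4-hydroxylase alpha subunits P4ha1, P4ha2 and P4ha3, the lysyl hydroxylases Plod1, Plod2 and Plod3, and the prolyl 3-hydroxylase family P3h1, P3h2, P3h3 and P3h4. The members were picked by gene symbol, with earlier results of these data known. All 10 were found among the 55335 gene IDs of the count table. Of these 10, 9 passed the filter on low counts, as did 14878 genes in all, and P4ha3 did not.

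The hearts came from C57BL/6N mice aged 3 to 5 months on NIH-31 chow. Wild-type (WT) or OGFOD1-knockout (KO) mice carried an osmotic minipump for 2 weeks that held either PBS with sodium ascorbate (vehicle) or this same mixture plus isoproterenol, a beta-adrenergic agonist used to induce cardiac hypertrophy. Ascorbate is a cofactor of the collagen hydroxylases, and it was given to all 4 groups. OGFOD1 is, like the collagen hydroxylases, a 2-oxoglutarate- and iron-dependent oxygenase, and hydroxylates a proline of a ribosomal protein. No source used here gives the dose of isoproterenol, how the knockout was made or whether it is whole-body. Each group had 5 libraries made from powdered whole heart, and nothing in the labels ties each library to a mouse of its own, so p-values measure the spread between libraries, which may be technical.

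Hydroxylated prolines made by the prolyl 4-hydroxylases stabilise the collagen triple helix at body temperature. Hydroxylysines carry sugars and form the basis of the crosslinks that make a collagen fibre stiff, and the rarer 3-hydroxyprolines are made at few sites of fibrillar and basement membrane collagens. In the heart, fibroblasts make most fibrillar collagen, while hypoxia-inducible factor is known to raise several of these hydroxylases in many cell types.

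Total counts were 14.6 to 43.7 M per library, of which 5.92 to 17.1 M lay outside the mitochondrial genome. Ogfod1 measured 19.2 ± 1.44 CPM (counts scaled to library size with TMM factors) under vehicle and 20.2 ± 1.35 CPM under isoproterenol in WT hearts, and 3.19 ± 0.582 and 3.18 ± 0.681 CPM in KO hearts (SD, n = 5 each), and every KO library (at most 4.13 CPM) lay below every WT library (at least 16.9 CPM). Summed cardiomyocyte markers came to 49751.1 to 74691.0 CPM over the 20 libraries, and none of the 10 was at 0 throughout. Of the libraries, 2 stood apart: WT vehicle replicate 2, in which the RNA Gm42418 reached 9504.8 CPM against 82.1 to 198.3 CPM elsewhere, and KO isoproterenol replicate 5, in which the collagen and related substrate genes summed to 5994.5 CPM against 1346.6 to 1838.1 CPM in the other 4 of its group. Calls of the hydroxylases that changed without them are given with and without them, as are those counts of the gene lists that are reported.

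Under isoproterenol the prolyl 4-hydroxylase subunit P4ha2 fell by 19.5% in WT and by 16.4% in KO hearts. The lysyl hydroxylase Plod3 and the prolyl 3-hydroxylases P3h2 and P3h3 rose when both genotypes were averaged, by 16.1%, 24.8% and 40.8%. Within 1 genotype, Plod1 and Plod3 also passed in WT and P3h3 in KO, but the difference between the genotypes' responses did not pass for any of the 9 tested members. P4ha1, Plod2, P3h1 and P3h4 did not pass the test in any comparison. The test was edgeR's quasi-likelihood test, with p-values adjusted over all tested genes. The plot of CPM by library shows each of these values.

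**Figure D1:**
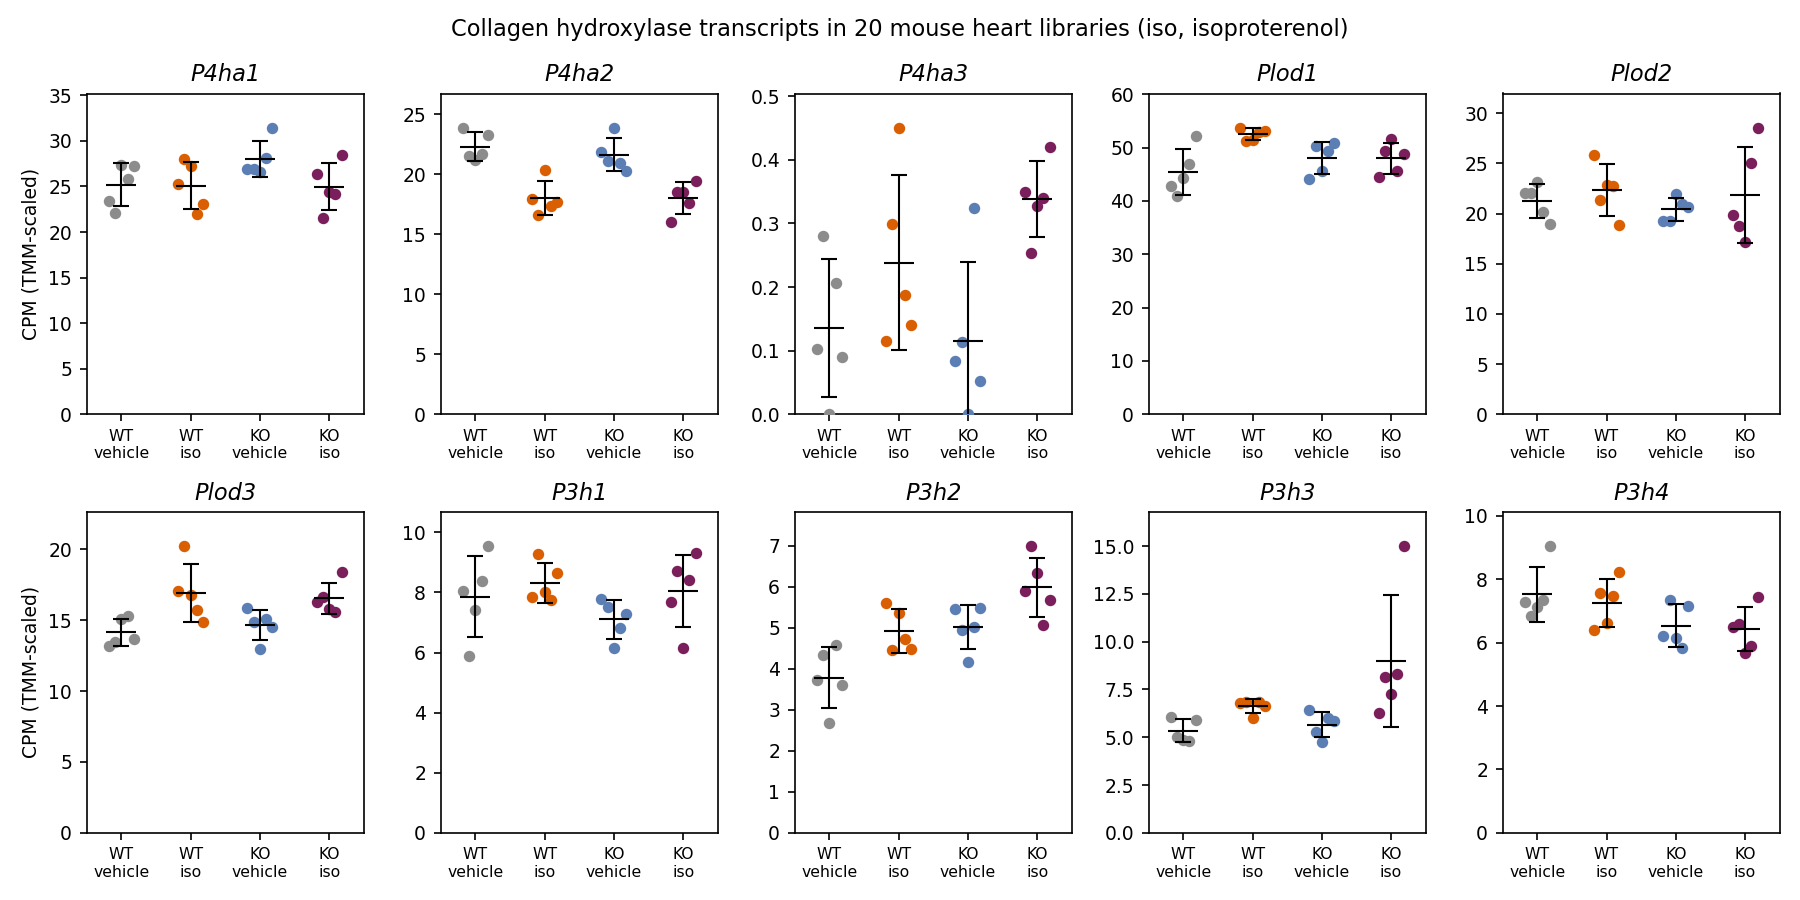
CPM of each of the 10 genes (y axes, from 0, each with its own scale) in the 5 libraries of each group (points; bar and whiskers, mean ± SD). P4ha2 separates vehicle from isoproterenol in both genotypes, and 1 KO isoproterenol library of P3h3 sits at 15.0 CPM, above the other 19.

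For isoproterenol in WT, 3 of the 9 tested members passed, where 8.76% of all tested genes passed; 2 were higher and 1 lower, beside 4.64% and 4.12% of all tested genes. In KO 2 passed, where 9.03% of all tested genes passed, 1 higher (4.75%) and 1 lower (4.29%). For the average over genotypes 4 passed, beside 18.8% of all tested genes, 3 higher (9.76%) and 1 lower (9.07%). Median changes of the 9 members were small, 0.07 in WT, 0.11 in KO and 0.10 on average, against 0.00, 0.01 and 0.01 over all tested genes.

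In edgeR 0 of 9 members passed for KO against WT under vehicle, where 0.128% of all tested genes passed. There 1 member and 1236 of all tested genes had an unadjusted p under 0.05. Under isoproterenol 0 passed beside 0.181% of all tested genes, with 2 members and 1935 genes at an unadjusted p under 0.05. DESeq2 called 0 members under vehicle and 0 under isoproterenol, beside 0.616% and 1.27% of all genes. Averaged over treatments 0 passed beside 0.847% of all tested genes, with 3 members and 1902 genes at an unadjusted p under 0.05. For this average DESeq2 called 1 member, P3h2, beside 1.66% of all genes. For the difference between the isoproterenol responses edgeR called 0 members and 0% of all tested genes, with 1 member and 1142 genes at an unadjusted p under 0.05. For this difference DESeq2 called 0 members and 0% of all genes. Comparisons that share the vehicle or the isoproterenol libraries are not independent of one another.

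**Figure D2:**
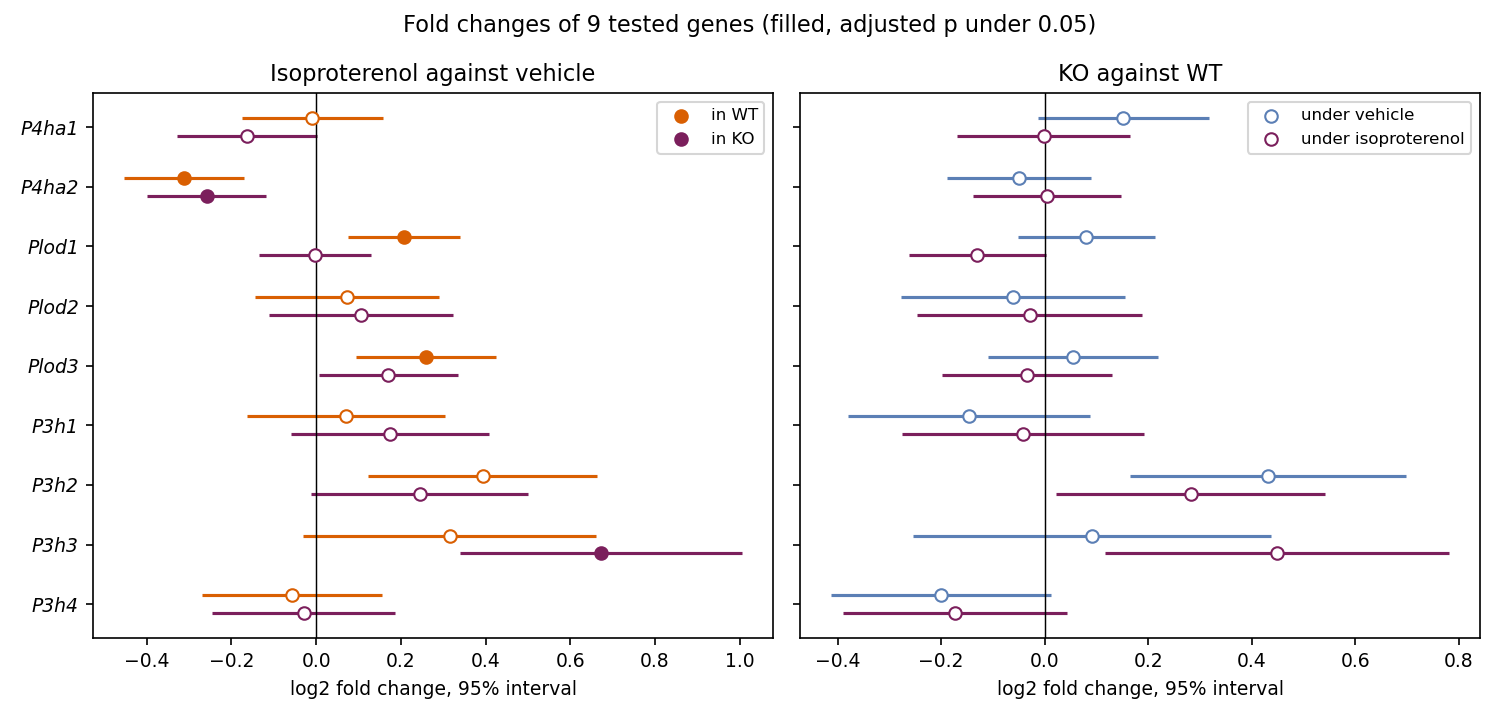
Log2 fold changes (x axes; lines, 95% intervals) of the 9 tested genes for isoproterenol against vehicle (left) and KO against WT (right); filled points passed at an adjusted p under 0.05. P4ha2 is filled in both genotypes on the left, Plod1 and Plod3 in WT and P3h3 in KO, and no point on the right is filled.

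Promoter sequences from RefSeq are shown for 3 of the genes to set the member that fell in both genotypes (P4ha2) beside its closest paralog (P4ha1) and a member that rose (Plod3). RefSeq windows on GRCm38.p6, running from 250 bases before the start site to 50 bases from it, were matched for 7 of the 10 members, and none for Plod2, P3h2 and P3h4. Each line gives the 250 bases before the start site, 5′ to 3′ on the gene's own strand, with capitals at matches, on either strand, to the hypoxia response core ACGTG, the cAMP response half-site TGACG, the CCAAT box (CCAAT) or the TATA box (TATAAA). Matches to these motifs do not overlap one another in the letters shown. The windows are P4ha1 chr10:59323046-59323295, P4ha2 chr11:54100674-54100923 and Plod3 chr5:136986769-136987018, all on the plus strand.
P4ha1 promoter: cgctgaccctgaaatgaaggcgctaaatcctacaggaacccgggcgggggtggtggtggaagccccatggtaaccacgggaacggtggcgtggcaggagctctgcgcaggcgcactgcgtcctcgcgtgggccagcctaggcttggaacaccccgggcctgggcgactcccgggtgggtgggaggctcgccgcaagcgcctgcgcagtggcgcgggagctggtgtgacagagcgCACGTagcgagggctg
P4ha2 promoter: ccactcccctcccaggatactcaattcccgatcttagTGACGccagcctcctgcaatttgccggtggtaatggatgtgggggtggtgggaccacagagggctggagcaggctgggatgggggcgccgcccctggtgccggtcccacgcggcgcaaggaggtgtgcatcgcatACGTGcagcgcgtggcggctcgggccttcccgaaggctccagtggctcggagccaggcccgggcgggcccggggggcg
Plod3 promoter: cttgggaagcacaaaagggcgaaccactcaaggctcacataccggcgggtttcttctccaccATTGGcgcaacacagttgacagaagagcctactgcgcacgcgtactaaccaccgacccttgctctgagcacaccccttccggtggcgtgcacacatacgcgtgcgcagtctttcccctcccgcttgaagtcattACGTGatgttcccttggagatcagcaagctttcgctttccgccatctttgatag

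In positions counted from the start site, the P4ha1 window holds ACGTG at −16 on the minus strand and TATAAA at 39. The P4ha2 window holds ACGTG at −78 and again at 10, and TGACG at −213 and at 41. Plod3 has ACGTG at −54 and a CCAAT box at −188 on the minus strand. No match to any motif was found in the windows of P3h3 and P4ha3. Plod1 had only a TATA box match at −232, and P3h1, with 2 windows, had CCAAT matches in both and ACGTG in one. Over all 32851 promoter windows of 300 bases, 19.6% held ACGTG, 20.8% TGACG, 37.4% CCAAT and 13.6% TATAAA. The full cAMP response site TGACGTCA was also searched and was in 1.79% of all windows and in none of these. The start site of the P4ha2 window, 54100924, differs from the first base of the gene in GENCODE vM21, 54100095. Matches describe letters only, and no binding was measured.

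Levels between genes were compared per length, as CPM per kilobase of exon averaged over the 20 libraries. Plod1 was highest at 7.17, followed by P4ha1 at 6.28. Plod2 at 3.98, Plod3 at 3.45, P4ha2 at 3.20 and P3h4 at 3.19 came next. P3h1 at 2.04, P3h3 at 1.69 and P3h2 at 1.32 were lower, and P4ha3 was lowest at 0.0660. The ranges over libraries of neighbours in this order overlapped, except between P3h4 (2.60 to 4.15) and P3h1 (1.53 to 2.48) and between P3h2 (0.717 to 1.88) and P4ha3 (0 to 0.144). The order depends on the length used, which was the union of exons over all annotated transcripts of a gene. In plain CPM the ranges of P3h4 (5.67 to 9.04) and P3h1 (5.87 to 9.53) overlapped. The longest open reading frames of genes within a family shared 61.0% to 68.6% of aligned bases, and no run of 50 bases was shared between any of the 10 genes.

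The prolyl 4-hydroxylase alpha subunits carry the catalytic site and pair with P4hb, the protein disulfide isomerase that serves as the beta subunit. P4ha1 (ENSMUSG00000019916; GRCm38 chromosome 10, 59323296 to 59373304, plus strand) is the alpha subunit of the main form of the enzyme in most tissues. Its 5 libraries lay between 22.1 and 27.4 CPM in WT vehicle, 22.0 and 28.0 in WT isoproterenol, 26.6 and 31.4 in KO vehicle, and 21.5 and 28.5 in KO isoproterenol hearts. All 4 groups overlapped. The isoproterenol effect on P4ha1 was −0.01 on the log2 scale in WT (95% interval −0.18 to 0.16) and −0.16 in KO (−0.33 to 0.00), with edgeR adjusted p = 0.961 and 0.222.

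P4ha2 (ENSMUSG00000018906; chromosome 11, 54100095 to 54131665, plus strand) is the alpha subunit of the second form. In WT hearts it measured 23.8, 21.5, 21.2, 21.7 and 23.3 CPM under vehicle and 17.9, 16.6, 20.4, 17.3 and 17.7 CPM under isoproterenol. In KO hearts the 5 vehicle libraries gave 21.8, 21.1, 23.9, 20.9 and 20.3 CPM and the 5 isoproterenol libraries 16.0, 18.5, 18.5, 17.6 and 19.5 CPM. Every isoproterenol library lay below every vehicle library of its genotype. Group means went from 22.3 ± 1.18 to 18.0 ± 1.42 CPM in WT and from 21.6 ± 1.38 to 18.0 ± 1.29 CPM in KO (SD, n = 5 each). Groups of 5 that do not overlap, with isoproterenol lower, were found for 3.75% of tested genes in WT and 4.31% in KO, and P4ha2 was the only member among them in either genotype.

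The fold change of P4ha2 on the log2 scale was −0.31 (SE 0.0689, edgeR adjusted p = 0.00375) in WT and −0.26 (SE 0.0689, adjusted p = 0.0154) in KO. Averaged over genotypes it was −0.29 (95% interval −0.38 to −0.19, adjusted p = 9.11e-05). The WT and average calls held in every alternative fit and without any single library. In KO the value was −0.22 and did not pass when either vehicle replicate 3 (adjusted p = 0.0550) or isoproterenol replicate 1 (adjusted p = 0.0576) was left out. The responses of P4ha2 in the 2 genotypes differed by 0.05 (−0.14 to 0.25, adjusted p = 0.918), and its genotype effect was −0.05 under vehicle (−0.19 to 0.09) and 0.00 under isoproterenol (−0.14 to 0.15).

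P4ha3 (ENSMUSG00000051048; chromosome 7, 100285520 to 100319699, plus strand), the third alpha subunit, was near the limit of detection, with 0 to 10 counts per library and 0 in 2 of the 20. Its counts summed over 5 libraries came to 12 in WT vehicle, 28 in WT isoproterenol, 14 in KO vehicle and 33 in KO isoproterenol hearts. As CPM this was 0.136 ± 0.109, 0.239 ± 0.138, 0.115 ± 0.125 and 0.338 ± 0.0596 (SD, n = 5 each). The 4 groups overlapped. Without the filter on low counts the isoproterenol effect averaged over genotypes on P4ha3 was 1.24 (SE 0.408, edgeR adjusted p = 0.0303), and DESeq2 gave 1.26 (SE 0.459, adjusted p = 0.0379). Within a genotype the unfiltered edgeR fit gave adjusted p = 0.508 in WT and 0.0990 in KO, and DESeq2 gave no adjusted p.

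Within the family, P4ha1 made up 62.8% ± 2.76 of the summed CPM per kilobase in WT vehicle and 67.3% ± 2.36 in WT isoproterenol hearts, 66.0% ± 2.62 in KO vehicle and 66.9% ± 2.69 in KO isoproterenol hearts (SD, n = 5 each). In plain CPM these shares were lower, at 52.8% ± 2.88, 57.9% ± 2.68, 56.3% ± 2.92 and 57.6% ± 3.04 in the same order. The ratio of P4ha1 to P4ha2 per kilobase was 1.72 ± 0.193, 2.13 ± 0.254, 1.98 ± 0.244 and 2.11 ± 0.271 in the same order. Ranges of this ratio overlapped between groups of one genotype, from 1.49 to 1.96 and 1.92 to 2.56 in WT, and from 1.69 to 2.35 and 1.77 to 2.50 in KO.

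**Figure D3:**
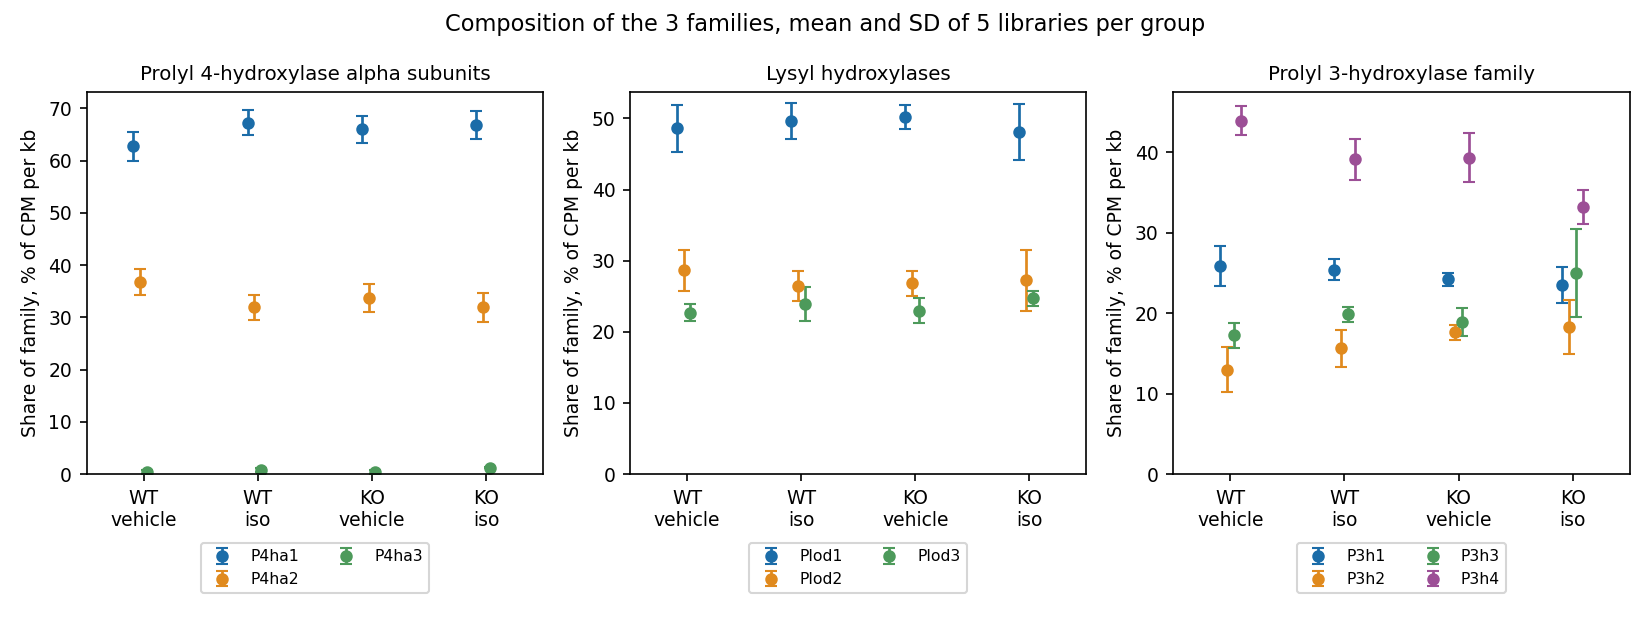
Share of each gene in the summed CPM per kilobase of exon of its family (y axes, percent, from 0) in the 4 groups (points, mean of 5 libraries; whiskers, SD). P4ha1 holds 62.8% to 67.3% of its family, and the share of P3h4 goes from 43.9% in WT vehicle to 33.2% in KO isoproterenol hearts.

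The lysyl hydroxylases differ in their targets. Plod1 (ENSMUSG00000019055; chromosome 4, 147909753 to 147936767, minus strand) acts on lysines of the helix. Under vehicle its WT libraries gave 42.7, 41.0, 44.4, 47.0 and 52.1 CPM and under isoproterenol 53.7, 51.2, 51.5, 53.0 and 53.2 CPM. All but 1 vehicle library lay below the lowest isoproterenol library. The KO libraries ranged from 44.1 to 51.0 CPM under vehicle and from 44.5 to 51.7 CPM under isoproterenol, averaging 48.1 ± 3.05 under vehicle and 48.0 ± 2.92 CPM under isoproterenol (SD, n = 5 each).

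The isoproterenol effect on Plod1 was 0.21 (SE 0.0646, edgeR adjusted p = 0.0412) in WT and −0.00 (−0.13 to 0.13, adjusted p = 0.986) in KO. The difference between these responses of Plod1 was −0.21 (−0.40 to −0.02), with an edgeR unadjusted p = 0.0285 and an adjusted p = 0.601, so it did not pass. The WT call of Plod1 was a narrow one. It was lost in the fit of only the groups compared (adjusted p = 0.0577), without a filter on low counts (0.0756), with 2 surrogate variables (0.165), without both libraries that stood apart (0.0892) and without any 1 of 9 of the 10 WT libraries (all but vehicle replicate 5), with adjusted p-values of 0.0539 to 0.109.

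Plod2 (ENSMUSG00000032374; chromosome 9, 92542223 to 92608428, plus strand), which acts on the telopeptide lysines that give stable crosslinks, varied most in KO isoproterenol hearts. There it measured 19.9, 18.7, 17.1, 25.0 and 28.5 CPM, against 19.2 to 21.9 CPM in KO vehicle, 19.0 to 23.1 in WT vehicle and 18.9 to 25.9 in WT isoproterenol hearts. The isoproterenol effect on Plod2 was 0.07 in WT (−0.14 to 0.29) and 0.11 in KO (−0.11 to 0.32), with edgeR adjusted p = 0.733 and 0.602. Of its 50-base runs 5.51% also occur on the other strand, in Gm38391, which had 8 to 59 counts per library.

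Plod3 (ENSMUSG00000004846; chromosome 5, 136987019 to 136996648, plus strand) also transfers glucose to hydroxylysine that already carries galactose. Its WT libraries gave 13.2, 13.5, 15.1, 15.3 and 13.7 CPM under vehicle and 17.1, 20.2, 16.8, 15.7 and 14.9 CPM under isoproterenol. The KO libraries gave 15.9, 14.9, 13.0, 15.1 and 14.5 CPM under vehicle and 16.3, 16.6, 15.8, 15.6 and 18.4 CPM under isoproterenol. In each genotype the groups overlapped at their edges, with 4 isoproterenol libraries in WT and 3 in KO above the highest vehicle library. The effect on Plod3 was 0.26 (SE 0.0807, edgeR adjusted p = 0.0407) in WT, 0.17 (0.01 to 0.33, adjusted p = 0.195) in KO and 0.22 (SE 0.0569, adjusted p = 0.00749) on average.

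The average call of Plod3 held in all 8 other settings (adjusted p = 0.00562 to 0.0238) and without any single library (0.00390 to 0.0200). The WT call was lost without a filter (0.0527), with only the groups compared (0.0641), without both libraries that stood apart (0.0594) and without any 1 of 6 WT libraries (vehicle 1, 2 and 5, isoproterenol 1, 2 and 3; up to 0.148, without isoproterenol replicate 2). The difference between genotypes in the response of Plod3 was −0.09 (−0.32 to 0.14). Of the distinct 50-base runs of Plod3, 9.79% also occur on the other strand, among them in Znhit1, which overlaps it. No source used here gives the strand setting of the counting, so reads of such a pair cannot be told apart with certainty. Znhit1 itself did not pass, at −0.12 on average (edgeR adjusted p = 0.255), opposite in sign to Plod3.

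The prolyl 3-hydroxylase family has 3 enzymes and P3h4, a relative that lacks the catalytic domain and forms a complex with P3h3 and Plod1. P3h1 (ENSMUSG00000028641; chromosome 4, 119232915 to 119248975, plus strand) works in a complex with Crtap and the cyclophilin Ppib on fibrillar collagens. P3h1 ranged from 5.87 to 9.53 CPM in WT vehicle, 7.75 to 9.29 in WT isoproterenol, 6.14 to 7.79 in KO vehicle and 6.16 to 9.30 in KO isoproterenol hearts. The isoproterenol effect on P3h1 was 0.07 in WT (−0.16 to 0.30) and 0.17 in KO (−0.06 to 0.41), and neither passed. Its partners Crtap and Ppib did not pass on average either, at 0.12 (edgeR adjusted p = 0.425) and 0.09 (adjusted p = 0.308).

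P3h2 (ENSMUSG00000038168; chromosome 16, 25959288 to 26105784, minus strand) acts mainly on basement membrane collagen. In WT hearts it measured 3.72, 4.33, 2.67, 4.58 and 3.60 CPM under vehicle and 5.60, 4.45, 5.35, 4.73 and 4.47 CPM under isoproterenol. In KO hearts it measured 5.46, 4.94, 4.16, 5.01 and 5.47 CPM under vehicle and 5.89, 6.98, 6.33, 5.06 and 5.68 CPM under isoproterenol. WT vehicle was lowest and KO isoproterenol highest in mean, with WT isoproterenol and KO vehicle between them, and neighbouring groups overlapped. The means were 3.78 ± 0.745, 4.92 ± 0.526, 5.01 ± 0.536 and 5.99 ± 0.722 CPM for WT vehicle, WT isoproterenol, KO vehicle and KO isoproterenol (SD, n = 5 each).

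Averaged over genotypes, P3h2 rose under isoproterenol by 0.32 on the log2 scale (SE 0.0911, edgeR adjusted p = 0.0130). The effect was 0.39 in WT (adjusted p = 0.0582) and 0.24 in KO (adjusted p = 0.244), so neither genotype passed alone. For KO against WT averaged over treatments P3h2 stood at 0.36 (95% interval 0.17 to 0.54), just outside the threshold (edgeR adjusted p = 0.0549). It was 0.43 under vehicle (0.16 to 0.70, adjusted p = 0.258) and 0.28 under isoproterenol (0.02 to 0.54, adjusted p = 0.347). This average genotype effect of P3h2 passed in 5 of 8 other settings. These were DESeq2 (adjusted p = 0.0235), limma-voom with quality weights (0.0217), the fit without a filter (0.0253), that with 2 surrogate variables (0.0101) and that without both libraries that stood apart (0.0344). It did not pass with RLE or upper quartile scaling or without mitochondrially encoded genes (edgeR adjusted p up to 0.0608). The effect passed in 5 of the 20 fits that leave out 1 library, and it lay between 0.30 and 0.40 on the log2 scale in every alternative. P3h2 counts were low, 62 to 208 per library, and 27.5% of its 50-base runs also occur on the other strand, among them in Gm4524, which overlaps it and had 0 to 12 counts per library.

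P3h3 (ENSMUSG00000023191; chromosome 6, 124841089 to 124857752, minus strand) is the partner of P3h4. In WT hearts it measured 6.07, 5.03, 4.87, 4.79 and 5.89 CPM under vehicle and 6.82, 6.85, 6.00, 6.84 and 6.64 CPM under isoproterenol. In KO hearts it measured 6.42, 5.28, 4.73, 6.03 and 5.84 CPM under vehicle and 6.29, 8.13, 7.26, 8.29 and 15.0 CPM under isoproterenol. In each genotype 1 isoproterenol library lay within the vehicle range, and the other 4 lay above it. The highest value belongs to KO isoproterenol replicate 5, in which Col1a1 stood at 379.1 CPM, the highest of its group.

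The effect of isoproterenol on P3h3 was 0.67 (SE 0.162, edgeR adjusted p = 0.00882) in KO, 0.32 (−0.03 to 0.66, adjusted p = 0.266) in WT and 0.49 (SE 0.116, adjusted p = 0.00365) on average. Without KO isoproterenol replicate 5 the KO value of P3h3 was 0.40 (adjusted p = 0.0250) and the average 0.36 (adjusted p = 0.00130). The KO call was lost in the fit of only the groups compared (adjusted p = 0.0873). The responses of P3h3 in the 2 genotypes differed by 0.36 (−0.12 to 0.84, adjusted p = 0.723). For KO against WT under isoproterenol P3h3 stood at 0.45 (adjusted p = 0.248), and at 0.17 without that library (adjusted p = 0.587).

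P3h4 (ENSMUSG00000006931; chromosome 11, 100408456 to 100414836, minus strand) ranged from 6.85 to 9.04 CPM in WT vehicle, 6.41 to 8.24 in WT isoproterenol, 5.84 to 7.35 in KO vehicle and 5.67 to 7.45 in KO isoproterenol hearts. The isoproterenol effect on P3h4 was −0.06 in WT (−0.27 to 0.16) and −0.03 in KO (−0.25 to 0.19). For KO against WT averaged over treatments it stood at −0.19 (−0.34 to −0.03) and did not pass (edgeR adjusted p = 0.268). As a share of its family per kilobase, P3h4 went from 43.9% ± 1.81 in WT vehicle to 39.1% ± 2.58 in WT isoproterenol, 39.4% ± 3.01 in KO vehicle and 33.2% ± 2.16 in KO isoproterenol hearts (SD, n = 5 each). P3h3 made up 17.3% ± 1.55, 19.8% ± 0.977, 18.9% ± 1.76 and 25.0% ± 5.48 of the family in the same order, and P3h2 13.0% ± 2.81, 15.6% ± 2.31, 17.6% ± 0.929 and 18.3% ± 3.33. In plain CPM the share of P3h4 was 30.75% in WT vehicle, where P3h1 held 31.93%, and 21.98% in KO isoproterenol hearts, where P3h1 held 27.45%. Of the pair of P3h3 and P3h4, P3h3 passed for isoproterenol on average and P3h4 did not, and the difference between the 2 genes was not tested.

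Other genes of collagen production were counted beside the hydroxylases. Of 21 tested partners and chaperones, 1 rose and 2 fell on average (median 0.09, and 0.02 without both libraries that stood apart, with 1 and 2 called). Colgalt1, which adds galactose to hydroxylysine, rose by 0.16 (edgeR adjusted p = 0.0215), while the endoplasmic reticulum chaperones Hspa5 and Pdia6 fell by 0.27 (adjusted p = 2.26e-04) and by 0.24 (adjusted p = 0.00331). P4hb, the beta subunit shared by all 3 alpha subunits, stood at 0.04 (adjusted p = 0.556), the collagen chaperone Serpinh1 at 0.05 (adjusted p = 0.834) and Fkbp10, a prolyl isomerase that supports telopeptide lysyl hydroxylation, at 0.22 (adjusted p = 0.366). Without both libraries P4hb, Serpinh1 and Fkbp10 stood at 0.01, −0.11 and 0.00, and none of them passed (edgeR adjusted p = 0.868, 0.130 and 0.976).

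Of 15 genes that process or crosslink collagen, 8 rose and 1 fell on average (median 0.53; the same counts and a median of 0.36 without both libraries). Loxl2 and Loxl3, lysyl oxidases that act on lysines and hydroxylysines, rose by 0.67 (edgeR adjusted p = 2.81e-07) and by 0.76 (adjusted p = 1.46e-06), and Pcolce, an enhancer of procollagen C-proteinase, by 0.42 (adjusted p = 3.55e-07). Ctsk, a collagen-degrading protease, rose by 0.75 (adjusted p = 5.77e-05). The 1 that fell, the protease gene Tll2, fell by 1.42 (adjusted p = 0.00110) and is named after its value was seen. In WT 4 of the 15 rose and 0 fell, and in KO 8 rose and 1 fell. Without both libraries 7 rose and 0 fell in WT and 8 rose and 1 fell in KO, so the counts of the genotypes lay close together there. Leaving out KO isoproterenol replicate 5 alone also gave 7 in WT. Pcolce2, Adamts2 and Sparc passed in WT without both libraries (edgeR adjusted p = 0.0228, 0.0234 and 5.61e-04) and did not with them (0.333, 0.194 and 0.170).

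Of 26 tested substrates, collagens and proteins with collagen-like domains, 14 rose and 0 fell on average (median 0.49; 12 rose and the median was 0.28 without both libraries that stood apart). The collagens Col8a1, Col16a1 and Col12a1 rose by 0.85 (edgeR adjusted p = 2.69e-11), by 0.73 (adjusted p = 3.08e-06) and by 0.69 (adjusted p = 5.28e-05), and Col3a1 rose by 1.36 (adjusted p = 0.00118). Col1a1 stood at 1.14 and did not pass (adjusted p = 0.0949). It measured 379.1 CPM in KO isoproterenol replicate 5 against 25.97 to 56.44 CPM in the other 4 of that group, and without both libraries it stood at 0.50 (edgeR adjusted p = 0.247). Of the 14, C1qa, C1qb and C1qc encode complement subunits made by macrophages, and C1qa is counted again among the macrophage markers below. For KO against WT averaged over treatments, 1 of the 26 rose, Col12a1, by 0.47 (adjusted p = 0.0347), and 0 to 2 rose when 1 library was left out. Without both libraries that stood apart 1 rose, again Col12a1, by 0.39 (edgeR adjusted p = 0.040). The plot of the gene lists sets these changes beside those of the hydroxylases.

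**Figure D4:**
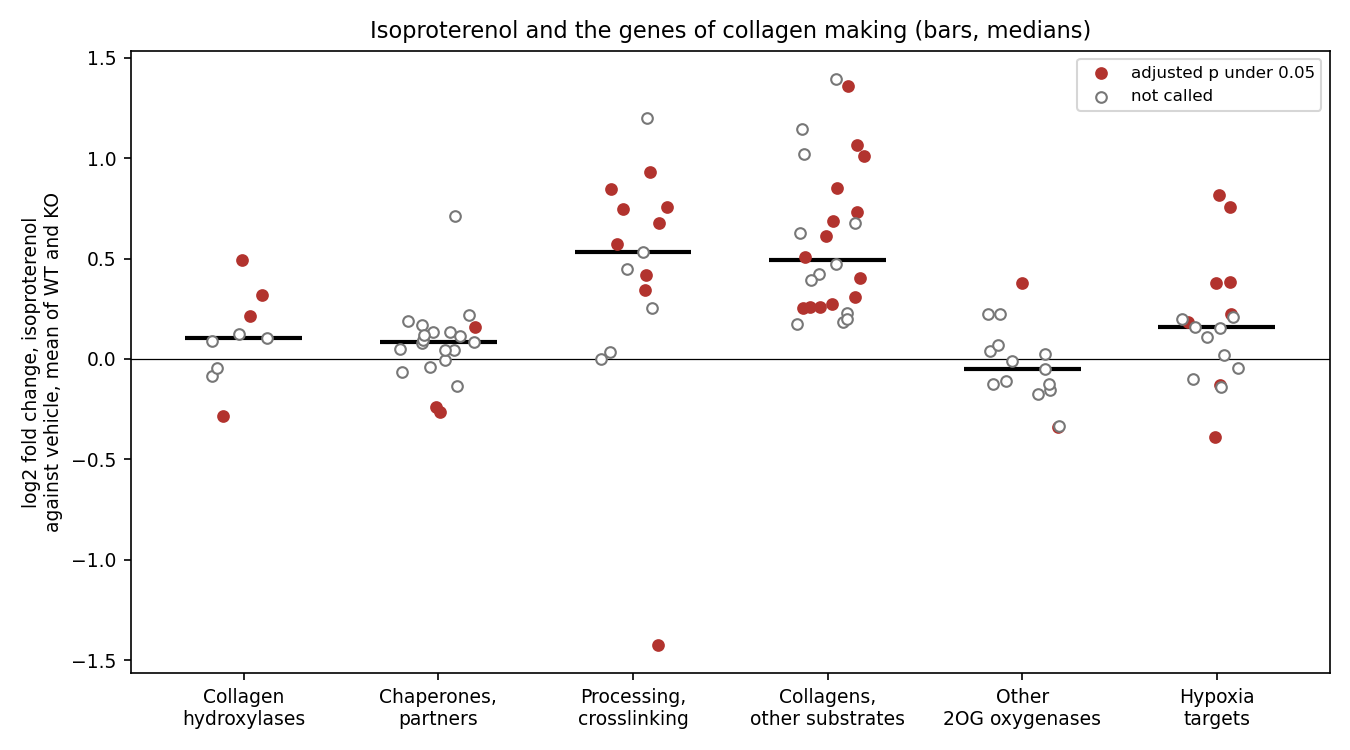
Log2 fold change of isoproterenol against vehicle, averaged over WT and KO (y axis), for each tested gene of 6 lists (points; filled, adjusted p under 0.05; bars, medians). The medians were 0.53 for processing and crosslinking genes and 0.49 for substrates, against 0.10 for the hydroxylases. Without both libraries that stood apart, which the plot includes, the first 2 medians were 0.36 and 0.28. Those of the prolyl 4-, lysyl and prolyl 3-hydroxylase families were then −0.22, 0.08 and 0.20.

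Of 15 other tested genes, mostly 2-oxoglutarate oxygenases outside collagen production, 1 rose and 1 fell on average, against 2 and 1 without both libraries, where Egln1 also passed at 0.18 (edgeR adjusted p = 0.00125). Egln3, a prolyl hydroxylase of hypoxia-inducible factor and itself one of its targets, rose by 0.38 (edgeR adjusted p = 0.00113), and Riox2, a ribosomal oxygenase, fell by 0.34 (adjusted p = 0.00180). Of 17 known targets of hypoxia-inducible factor, with Egln3 counted again, 6 rose and 2 fell (median 0.16), against 8 and 2 (median 0.19) without both libraries. Hmox1 rose by 0.82 (adjusted p = 7.81e-05), Bnip3 by 0.38 (adjusted p = 2.28e-04) and Ldha by 0.22 (adjusted p = 2.94e-04), whereas Vegfa fell by 0.39 (adjusted p = 6.02e-05) and Pdk1, named after its value was seen, by 0.13 (adjusted p = 0.0349). The collagen hydroxylases, several of which hypoxia-inducible factor is known to raise in many cell types, were not among these 17. They are described above.

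Markers of cell types moved with treatment as well. Of 9 tested fibroblast markers 8 rose under isoproterenol on average, with or without both libraries, and the summed level of all 10 went from 963.3 to 1116.8 CPM in WT vehicle to 1247.8 to 1346.0 in WT isoproterenol, and from 1086.6 to 1258.4 CPM in KO vehicle to 1348.3 to 1680.7 in KO isoproterenol hearts. Averaged over treatments, 2 of the 9 (Dcn and Lum) were higher in KO than in WT hearts, with edgeR adjusted p = 0.0165 and 0.0429, and 1 (Dcn) passed without both libraries that stood apart, as did 1 to 3 without 1 library. Of 10 cardiomyocyte markers 6 fell and 1 (Ryr2) rose, with sums of 69306.8 to 74691.0, 60763.7 to 64968.1, 66197.7 to 68979.0 and 49751.1 to 63953.1 CPM in the same order. Without both libraries the cardiomyocyte counts were the same but the genes were not. There Actn2 no longer passed (edgeR adjusted p = 0.0401 with and 0.111 without them) and Tnni3 did (0.117 and 0.0427). Of the others, 7 of 12 macrophage, 4 of 11 smooth muscle and pericyte and 3 of 11 endothelial markers rose, and 1 endothelial marker (Kdr) fell. Of 7 cartilage and valve markers 2 rose and 1 fell, and 1 of 8 tested erythroid and platelet markers rose. Of 5 adipocyte, 6 mesothelial and 1 lymphocyte markers tested, 0 passed. The counts of these last 5 lists were the same without both libraries. Over all tested genes 9.76% were higher and 9.07% lower. Without both libraries 7 macrophage, 3 smooth muscle and pericyte and 3 endothelial markers rose, Des of the smooth muscle list fell by 0.11 (edgeR adjusted p = 0.0277), and Kdr, at −0.13, did not pass (adjusted p = 0.0777). The smooth muscle and pericyte markers summed to 2765.2 CPM in KO isoproterenol replicate 5 and to 1958.0 to 1999.4 CPM in the other 4 of its group, and their median effect was 0.29 with and 0.12 without both libraries. When 1 library was left out, 1 to 3 endothelial markers rose and 0 to 1 fell. In these whole-heart libraries fewer cells of a type and less RNA per cell cannot be told apart, and the part of these shifts in the changes of P4ha2, Plod3, P3h2 and P3h3 was not tested.

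The genes most like each member over the 20 libraries, by Pearson r of log2 CPM among protein-coding genes, are given as a description, since they were picked for r and share the libraries and groups. For P4ha2 they were Colq (0.87), Lgi1 (0.86) and Mylk4 (0.86), and with group means removed these were 0.36, 0.52 and 0.30. For P3h2 they were Igfbp6 (0.85), Nid1 (0.85) and Lamc1 (0.83), of which Nid1 and Lamc1 encode basement membrane proteins, with 0.59, 0.63 and 0.72 after group means were removed. For P3h3 they were Igfbp7 (0.93), Pamr1 (0.93) and Vim (0.92), with 0.87, 0.89 and 0.85 after group means were removed. Over the 18 libraries without both that stood apart, these 3 had r of 0.83, 0.86 and 0.78. The nearest genes to the others were Rubcn to P4ha1 (0.81), Gng11 to Plod1 (0.84), Fos to Plod2 (0.80), Slc4a2 to Plod3 (0.82), Gle1 to P3h1 (0.84) and Smarcd3 to P3h4 (0.75). Over the 18 libraries Rubcn and Gng11 kept place 1, Slc4a2 and Gle1 had place 2, Smarcd3 place 10 and Fos place 15. The genes named for P4ha2 had places 4, 8 and 9 there, those for P3h2 places 2, 1 and 5, and those for P3h3 places 17, 7 and 62. Each r over the 20 libraries is among the highest of many genes compared.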

How the data were processed

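RNA from powdered mouse hearts was sequenced as stranded total RNA, per the labels' protocols. The deposited table holds raw counts per gene for 20 libraries. The authors used HISAT2 2.1.0 for alignment to GRCm38, featureCounts 1.6.3 for counting, and R 3.6.0 with limma 3.40.6, according to the submitters' processing notes. No source used here gives the annotation release, the strand setting or the treatment of multimapping reads. Symbols and coordinates came from GENCODE vM21, which held 55154 of the 55335 IDs.

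The analysis used edgeR 4.0.16 under R 4.3.3, with filterByExpr, TMM scaling and a single robust quasi-likelihood model with 1 mean for each group (16 residual degrees of freedom, common biological coefficient of variation 0.119). The 7 comparisons were each treatment and genotype effect, their averages, and the difference between responses. A gene was called at an adjusted p under 0.05 (Benjamini-Hochberg, 14878 genes). Intervals are at the 95% level. No libraries of a group agreed within sampling noise.

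Alternatives were DESeq2 1.42.0, RLE and upper quartile scaling, no filter, limma-voom (limma 3.58.1) with quality weights, 2 surrogate variables (sva 3.50.0), removal of mitochondrially encoded genes, only the groups compared, leaving out each library, and, chosen after seeing the data, leaving out both libraries that stood apart. Members, lists and tests were chosen with earlier results of these data known. Named genes were every member whatever its p, up to 3 genes most like each by Pearson r, up to 4 genes of smallest p per pathway list for the average effects, and fixed partners. Genes overlapping members on the other strand were added after their overlap was seen.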

Additional observations from a re-analysis of the deposited data

Results flagged for a closer look

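In 3 of 40 sets of 5 libraries of one group and gene, 1 library lay far from the other 4 by Dixon's test, where chance gives about 1 in 20. P3h3 measured 15.0 CPM in KO isoproterenol replicate 5 against 6.29 to 8.29 CPM in the other 4, and its effect without that library is given above. P3h3 also measured 6.00 CPM in WT isoproterenol replicate 3, below the 6.64 to 6.85 CPM of the others. P3h4 measured 9.04 CPM in WT vehicle replicate 5, above the 6.85 to 7.36 CPM of the others.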

How the results depend on the processing

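No paired analysis was possible because replicate numbers were given in record order, which links no libraries across groups. Of 1800 values of single genes under the alternatives, 66 changed sign, all uncalled in both fits and at most 0.09 in size. For isoproterenol in WT, 1 member passed without a filter on low counts, beside 4.6% of all genes. With only the groups compared 1 passed in WT, beside 9.29% of all genes. With limma-voom P4ha2, Plod1, Plod3 and P3h2 passed in WT, beside 12.1% of all genes, and 1 to 3 members passed when 1 library was left out. In KO 1 passed with only the groups compared, beside 7.7% of all genes, and 1 to 2 without 1 library. For KO against WT, 1 passed under vehicle with 2 surrogate variables (P3h2, adjusted p = 0.0463), where 0.323% of all genes passed, and 1 under isoproterenol without a filter (P3h3, adjusted p = 0.0280), where 0.768% did. Averaged over treatments 1 passed in DESeq2, without a filter, with limma-voom, with 2 surrogate variables and without both libraries that stood apart (1.66%, 1.08%, 1.32%, 1.76% and 1.17% of all genes), and 0 to 1 without 1 library. P3h2 in WT, at 0.0582 in the reported fit, passed with limma-voom (adjusted p = 0.0204), 2 surrogate variables (0.00764), without both libraries (0.0398) and without WT vehicle replicate 2 (0.0495) or 4 (0.0357), and Plod1 on average without WT vehicle replicate 5 (0.0396). The share of all genes that passed fell to 4.6% in WT, 4.76% in KO and 8.72% on average without a filter, and for KO against WT lay at 0.616%, 1.27% and 1.66% under vehicle, isoproterenol and on average in DESeq2, against 0.128%, 0.181% and 0.847% in edgeR. Shares of all genes in the fits that leave out 1 library are not given here. The member counts of those fits stand without that background. Causes were not tested. Depth limits P4ha3 (0 to 10 counts) most.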
